A study of Rattus norvegicus with 15 samples.

Results

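The comparison described here asked what the lipid coat changes when mitochondria are given to stressed astrocytes. It set 3 libraries of astrocytes that received coated mitochondria (MitoCoat) against 3 that received the same kind of mitochondria without a coat (unmodified mitochondria). These are 6 of the 15 bulk RNA-seq libraries of the series, and they were selected by their labels, with earlier results of these data known. All 6 came from primary cortical astrocytes of newborn wild-type Sprague Dawley rats that had been exposed to 100 µM H2O2 for 30 min, were treated 24 h later and were harvested 6 h after treatment. The mitochondria-enriched fractions were prepared from cryopreserved rat placenta, and the coat is made of the lipids DOTAP and DOPE. The other 9 libraries serve as levels beside the comparison: 3 of vehicle-treated control astrocytes, 3 of astrocytes given H2O2 alone, and 3 of astrocytes given H2O2 and then MitoCoat–mRNA, in which the same lipids carry RNA isolated from mitochondria and no mitochondria. The methods name a pair of possible mitochondrial concentrations, scaled to the volume of the well, and do not say which was used for sequencing. The study calls the samples of a group biological replicates. Neither it nor the labels say which culture each sequenced sample came from, so p-values measure the spread between these samples. The labels describe the extracted RNA as that of mitochondria-enriched fractions, whereas the study's methods and results describe treated astrocytes, and the libraries are treated here as astrocyte RNA.

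Mitochondria carry a small circular chromosome of their own, which encodes subunits of the respiratory chain and of ATP synthase together with the transfer and ribosomal RNAs needed to translate them. Both strands of this chromosome are transcribed as long precursors that are cut into shorter RNAs, so its genes share transcripts and are not independent of each other. In rodents the placenta uses several gene families that arose by local duplication, among them prolactin-related hormones, placental cathepsins, which are lysosomal cysteine proteases, and pregnancy-specific glycoproteins. Astrocytes support neurons metabolically and take up particles from their surroundings.

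Total counts ranged from 38611887 to 46672179 in the unmodified mitochondria libraries and from 38270874 to 42826709 in the MitoCoat libraries, and between 18978 and 19825 genes had counts in each of the 6. The spread between replicates, as the common biological coefficient of variation, was 18.7% with MitoCoat and 14.8% with unmodified mitochondria. The files name genes by Ensembl ID only, and none of the 32552 IDs could be paired with a symbol, so the check of astrocyte markers and the lists of metabolic, uptake and stress genes were not applied. Nuclear genes are therefore given by position on Rnor6.0. The 35 features on chromosome MT were named from their order, strand and length class along the chromosome, all of which matched the standard vertebrate arrangement, while the mitochondrial ribosomal RNA genes were not analysed here.

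Few genes separated coated from unmodified mitochondria. Of 15731 genes tested with edgeR's quasi-likelihood test, 0 (0%) passed an adjusted p of 0.05, and no adjusted value was lower than 0.889. Without adjustment, 438 genes (2.78%) were higher and 341 (2.17%) lower with MitoCoat at p under 0.05. Libraries that shared a number in the labels deviated together, and with that number as a block 5 genes (0.0318%) rose and 0 (0%) fell at an adjusted p under 0.05, with 639 (4.06%) higher and 763 (4.85%) lower at an unadjusted p under 0.05. DESeq2 without the block gave an adjusted p to 5889 genes. It called 4 genes higher (Nd4, a single-exon gene on chromosome 1 and a gene each on chromosomes 5 and 2) and 1 lower, on chromosome 3. The 5 genes called with the block were the mitochondrial Nd4, 3 spliced genes on chromosomes 1 and 17 with hardly any counts outside the 2 groups, and 1 single-exon gene on chromosome 1. The number of calls changed with the pairs that entered, since the block without the libraries numbered 1 called 574 genes (143 higher, 431 lower), without those numbered 2 called 6 (5 higher, 1 lower) and without those numbered 3 called 378 (249 higher, 129 lower), and these calls held 5, 4 and 5 of the 5 genes. With the block on all 15 libraries 1 of the 5 kept its call, ENSRNOG00000039975. DESeq2 with the block called 29 genes higher and 16 lower, so that calls in the lower direction depended on the tool and on the pairs that entered. The median log2 fold change over all genes tested was −0.0018.

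Mitochondrially encoded RNA took a larger share of the counts with MitoCoat. The share of counts on chromosome MT was 3.18%, 3.47% and 3.35% in the 3 unmodified mitochondria libraries and 3.60%, 4.48% and 4.17% in the 3 MitoCoat libraries. The groups did not overlap, with means of 3.33% ± 0.146 and 4.08% ± 0.445 (SD, n = 3 each) and a ratio of 1.22. The two-sided exact permutation test gave p = 0.1, the smallest that 3 against 3 can give. Within the numbered pairs the ratios were 1.13, 1.29 and 1.24. All 6 values lay within the range of the H2O2 libraries, which ran from 2.97% to 4.61%, and the ranges were 2.87% to 4.05% in control and 2.81% to 4.20% with MitoCoat–mRNA.

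**Figure D1:**
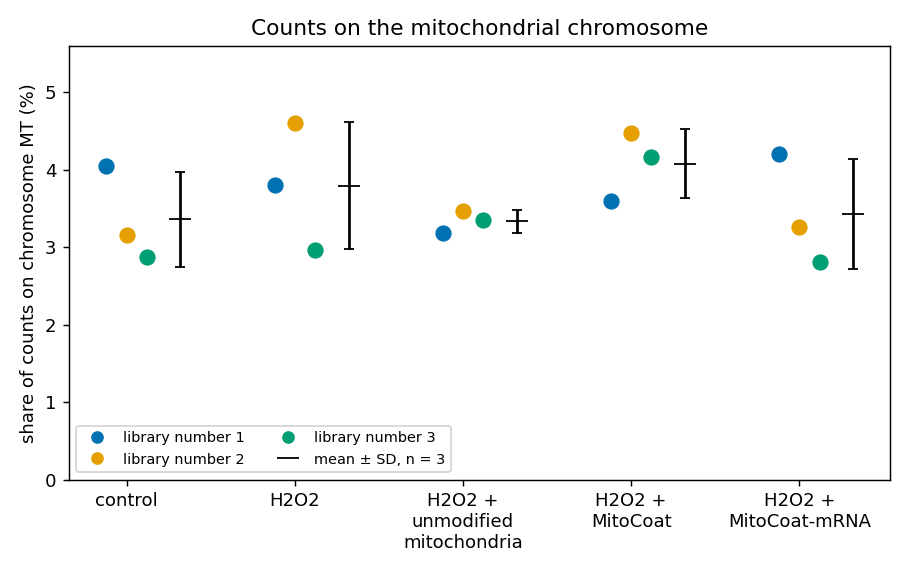
Share of counts on chromosome MT (%, vertical axis) in each of the 15 libraries, by group, with points coloured by library number and the mean ± SD beside them. The 3 MitoCoat libraries lie at 3.60% to 4.48%, above the 3 unmodified mitochondria libraries at 3.18% to 3.47%, while the H2O2 libraries span 2.97% to 4.61%.

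Of the 35 features on chromosome MT, 28 passed the filter on low counts, namely all 13 mRNAs and 15 of 22 tRNAs. Without the block all 28 had a log2 fold change above 0, against 49.6% of all genes tested. Of the 372 nuclear genes under 200 bases, the class of length of the 15 tRNAs, 74.2% were above 0. With the block 27 of the 28 were above 0, tRNA-Asn being at −0.058 on the log2 scale. Of the 28, 13 had an unadjusted p under 0.05 in the higher direction (2.78% of all genes), and 10 had MitoCoat libraries that were all above the unmodified mitochondria libraries (6.03% of all genes). With the block, 18 of the 28 had an unadjusted p under 0.05 (4.06% of all genes in the higher direction), and 1 was called. Over all 28 the median log2 fold change was 0.28, while the medians of the 21 nuclear chromosomes lay between −0.034 and 0.026. Chromosome MT therefore stood outside the range of the other chromosomes, which held 389 to 1968 tested genes each, although its genes share precursors. Nuclear genes under 200 bases had a median of 0.27, and the 15 tRNAs are shorter than that.

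Among the mRNAs, Nd4, Nd6, Nd3 and Nd2 had the highest fold changes, and all 4 encode subunits of complex I. This complex feeds electrons from NADH into the respiratory chain, and its 7 mitochondrial subunits had a median log2 fold change of 0.33. Nd4 encodes one of its proton-pumping membrane subunits. It was at 121, 149 and 142 CPM (counts divided by the library total and scaled to 1000000) with unmodified mitochondria and at 198, 238 and 217 CPM with MitoCoat. The groups did not overlap and each pair was higher by a similar factor, 1.64, 1.60 and 1.53. Its log2 fold change was 0.66 (SE 0.10) with an edgeR adjusted p of 0.889, and 0.66 (SE 0.077) with an edgeR adjusted p of 0.0136 with the block. The blocked edgeR adjusted p was 0.0925 without the libraries numbered 2 and 0.771 with all 15 libraries in the fit, while DESeq2 without the block gave an adjusted p of 5.9e-05. The level of Nd4 with MitoCoat was above all 3 control libraries (113 to 183 CPM) and overlapped the ranges with H2O2 alone (109 to 202 CPM) and with MitoCoat–mRNA (111 to 224 CPM).

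The share of Nd4 among the mitochondrial mRNAs was examined after its fold change was seen, and is given with no test. As a share of all mitochondrial mRNA counts it was 0.381%, 0.430% and 0.424% with unmodified mitochondria and 0.552%, 0.534% and 0.523% with MitoCoat, a ratio of 1.30 with non-overlapping groups. In the other 9 libraries that share ran from 0.370% to 0.534%, with its top in 1 MitoCoat–mRNA library. Per kilobase, Nd4 was the lowest of the 13 mRNAs, at a mean of 99.5 CPM per kb with unmodified mitochondria and 158 with MitoCoat, whereas Cox1, the catalytic subunit of complex IV, was the highest at 7905 and 9790. Nd4 shares a short stretch of sequence with Nd4l on the same strand, and reads in the shared bases cannot be given to either. Nd4l was at 764 CPM per kb with unmodified mitochondria and 924 with MitoCoat. Its log2 fold change was 0.27, against 0.66 for Nd4, and the cause of these differences was not tested.

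Nd6, the one mRNA feature on the opposite strand, came next. It was at 238, 319 and 252 CPM with unmodified mitochondria and at 345, 447 and 368 CPM with MitoCoat, with no overlap, and its log2 fold change was 0.51 (SE 0.13, edgeR adjusted p = 0.889, and 0.0616 with the block). Its share of mitochondrial mRNA counts overlapped between the groups. Nd6 overlaps the end of Nd5 on the other strand, and whether the counting used strand is stated only as "when applicable". Nd3 had a log2 fold change of 0.39, Nd2 of 0.33, Nd4l of 0.27, Nd1 of 0.26 and Nd5 of 0.25. Of these, the groups did not overlap for Nd2 and Nd4l.

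The subunits of the other complexes lay close together. The 3 mitochondrial subunits of complex IV, the oxidase that passes electrons to oxygen, had log2 fold changes of 0.32 for Cox2, 0.30 for Cox1 and 0.24 for Cox3. Atp6 and Atp8, which belong to ATP synthase, were at 0.27 and 0.24. Cytb, the mitochondrial subunit of complex III, was at 0.24 and was the lowest of the 13. All 13 mRNAs had log2 fold changes between 0.24 and 0.66 with a median of 0.27, 9 had an unadjusted p under 0.05 without the block (2.78% of all genes in the higher direction) and 13 with it (4.06%), and 6 had groups that did not overlap (6.03%). In edgeR on the 6 libraries with the block, 1 of the 13 passed the adjusted threshold, Nd4. The block in DESeq2 called 5 (Nd4, Nd6, Nd3, Nd2 and Cox2), and 45 of 13985 genes in all. The block in edgeR called 13 without the libraries numbered 1, 0 without those numbered 2 and 7 without those numbered 3. Over all genes those 3 fits called 574 of 15929, 6 of 15901 and 378 of 15805. All 13 stayed above 0 in every setting tried.

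**Figure D2:**
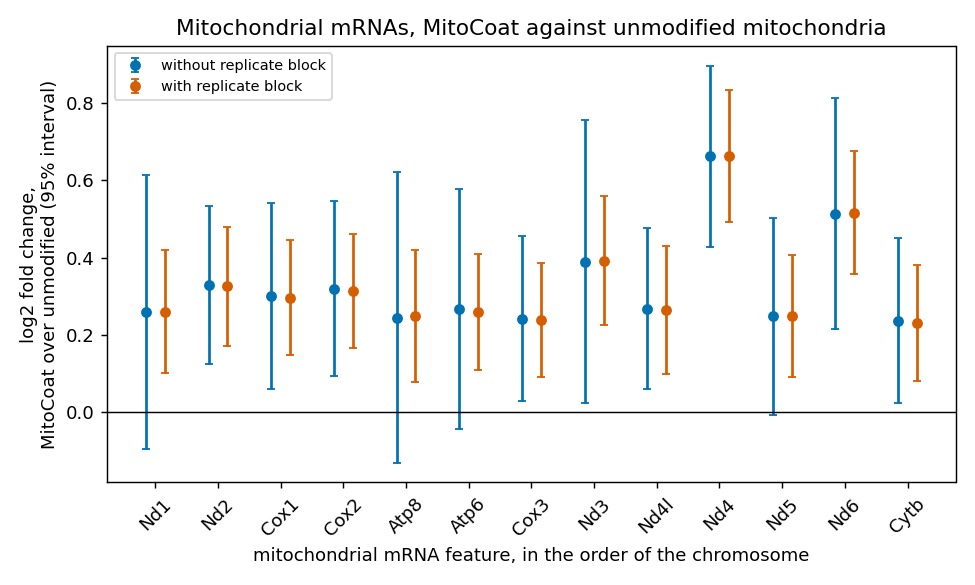
Log2 fold change of the 13 mitochondrial mRNA features, MitoCoat over unmodified mitochondria, with 95% intervals, from edgeR without (blue) and with (orange) the replicate block. All 13 points are above 0, Nd4 at 0.66 and Nd6 at 0.51 stand highest, and the intervals of Nd1, Atp8, Atp6 and Nd5 include 0 without the block.

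The 15 tRNA features tested had a median log2 fold change of 0.43 and a range of 0.020 to 1.65. The position of tRNA-Pro held 35.4, 37.4 and 36.2 CPM with unmodified mitochondria and 42.5, 59.9 and 59.3 CPM with MitoCoat, with no overlap and a log2 fold change of 0.56 (SE 0.13, edgeR adjusted p = 0.889). With the block its adjusted p was 0.234 in edgeR and 0.0124 in DESeq2. The tRNA features are short, nuclear genes under 200 bases had a median log2 fold change of 0.27, and with the trend over gene length removed tRNA-Pro was at 0.27. tRNA-Gln had the largest value, 1.65 (SE 0.49), from 10, 16 and 16 counts against 24, 62 and 38. It was picked out after its values were seen. Most tRNA features had few counts in libraries that the labels describe as poly(A) RNA, and reads there can belong to unprocessed precursors.

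Transcripts that control astrocytes lacked summed to a higher level with the coat in every numbered pair. Genes were taken that had 0 counts in all 3 control libraries and at least 10 counts over the 6 libraries compared, whichever group held them. As both reads of a pair were mostly counted, a count of 0 still allows up to 3 read pairs, or about 6 counts, in a library, for counting error only. There were 419 such genes, and only 24 passed the filter for testing, so their sum is given as a description. The summed level was 44.2, 47.8 and 26.6 CPM with unmodified mitochondria and 115, 88.3 and 56.8 CPM with MitoCoat, a ratio of means of 2.19. The MitoCoat libraries were all above the unmodified ones, and the pair ratios were 2.59, 1.85 and 2.14. The same genes summed to 10.8 to 20.4 CPM in the H2O2 libraries and 9.81 to 12.2 CPM with MitoCoat–mRNA. Over the genes, 279 had a higher mean with MitoCoat and 140 a lower one.

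A smaller group of 29 genes had 0 counts in all 3 control and all 3 H2O2 libraries and at least 30 counts over the 6. They summed to 24.5, 23.0 and 5.91 CPM with unmodified mitochondria and to 86.7, 62.8 and 15.2 CPM with MitoCoat. The MitoCoat library numbered 3 was below the unmodified mitochondria libraries numbered 1 and 2, so the groups overlapped. The means were 17.8 ± 10.3 and 54.9 ± 36.4 CPM (SD, n = 3 each), a ratio of 3.08, and the pairs numbered 1, 2 and 3 gave ratios of 3.54, 2.73 and 2.57. In both groups the library numbered 3 was the lowest. Of the 29 genes, 27 had a higher mean with MitoCoat, 20 were higher in all 3 pairs, and 28 had more than 1 exon. The threshold of 30 counts sums both groups, and some genes reached it through the MitoCoat libraries alone. These tallies are therefore partly set by the choice of genes. At a threshold of 10 counts, 105 of 140 such genes had a higher mean with MitoCoat and 35 a lower one. More cells that express a transcript, more RNA per cell and RNA that came with the mitochondria cannot be told apart in bulk libraries.

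The 29 genes were not spread evenly over the genome. Grouping neighbours less than 1000000 bases apart put 21 of them into 3 clusters of at least 4 genes. The first held 6 genes on chromosome 1 between 79122608 and 79481865 and summed to 4.01, 3.46 and 1.37 CPM with unmodified mitochondria and to 14.8, 9.19 and 3.53 CPM with MitoCoat, a ratio of 3.11. The second held 9 genes on chromosome 17 between 3210130 and 4167411 and summed to 8.39, 9.45 and 1.59 CPM against 34.7, 24.8 and 4.81 CPM, a ratio of 3.31. The third held 6 genes on chromosome 17 between 38710432 and 39575720 and summed to 7.82, 5.85 and 1.29 CPM against 27.8, 19.7 and 3.61 CPM, a ratio of 3.42. The 8 genes outside had a ratio of 2.13. All 21 clustered genes had a higher mean with MitoCoat. Some of them reached the count threshold of the 29 through the MitoCoat libraries alone, so this tally is partly set by the choice of genes. In each cluster the library numbered 3 was the lowest of both groups. In the RefSeq table of the GRCr8 assembly, whose genes could not be matched to these IDs, all 24 prolactin-family genes and all 14 placental cathepsin genes lie on chromosome 17, and the 4 pregnancy-specific glycoprotein genes lie on chromosome 1, as do 11 genes of the related Ceacam family, whose members also serve in other tissues. Whether the clustered genes belong to these families was not tested.

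**Figure D3:**
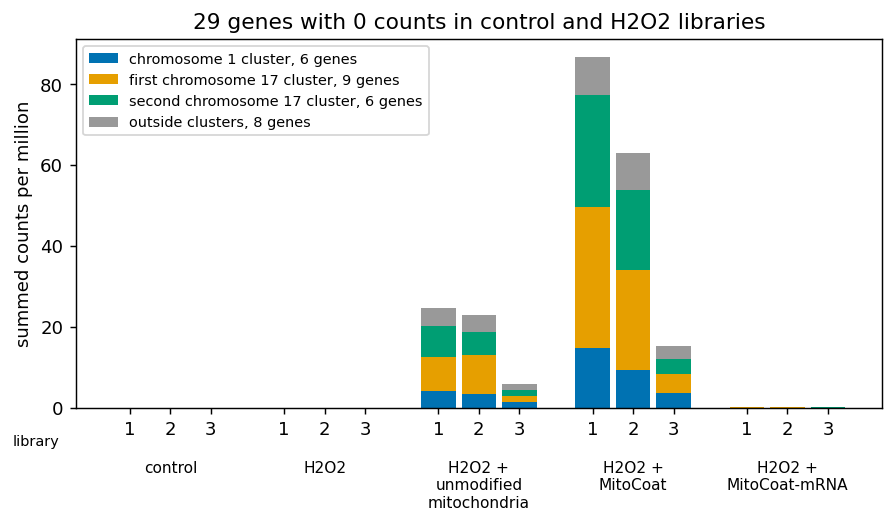
Summed CPM (vertical axis) of the 29 genes with 0 counts in control and H2O2 libraries, in each of the 15 libraries, stacked by genomic cluster. The MitoCoat bars reach 86.7, 62.8 and 15.2 CPM and the unmodified mitochondria bars 24.5, 23.0 and 5.91 CPM.

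Within this group, a single gene carried much of the sum. ENSRNOG00000039975, a gene of 5 exons at chr17:4165041-4167411, had 240, 250 and 50 counts with unmodified mitochondria and 1103, 664 and 146 with MitoCoat. Those are 6.22, 5.85 and 1.07 CPM against 25.8, 16.4 and 3.81 CPM, so that the groups overlapped while each pair moved the same way by 4.14, 2.80 and 3.56 times. Its log2 fold change was 1.82 (SE 0.68, edgeR adjusted p = 0.889) without the block and 1.78 (SE 0.16, edgeR adjusted p = 0.00478) with it. For ENSRNOG00000039975 the log2 fold change without the block was 1.22 when MitoCoat library 1 was left out. MitoCoat–mRNA libraries held 2, 2 and 0 counts of it.

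A gene of 14 exons at chr17:39188311-39463715 was the other of the 29 that rose with the block. It had 142, 105 and 20 counts with unmodified mitochondria and 561, 344 and 64 with MitoCoat, and 0 in every MitoCoat–mRNA library. The pair ratios in CPM were 3.56, 3.45 and 3.90, and the log2 fold change with the block was 1.84 (SE 0.18, edgeR adjusted p = 0.00513), against an edgeR adjusted p of 0.889 without it and of 0.247 with the block on all 15 libraries. Without the block its log2 fold change of 1.84 became 1.23 when MitoCoat library 1 was left out and 2.44 when unmodified mitochondria library 1 was left out. A smaller gene of 5 exons lies inside its span on the same strand, at chr17:39455908-39462629, and held 2, 0 and 0 counts against 37, 32 and 10. Reads that both could claim cannot be assigned with certainty.

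Another gene had the same profile but was left out of the 29 by 2 counts in 1 control library. It has 10 exons at chr1:79680194-79708835, beyond the end of the chromosome 1 cluster. Its counts were 220, 195 and 40 with unmodified mitochondria and 777, 505 and 114 with MitoCoat, with 0 in the H2O2 libraries and 0, 2 and 0 with MitoCoat–mRNA. The pair ratios were 3.18, 2.73 and 3.48, and it rose by 1.61 on the log2 scale with the block (SE 0.15, edgeR adjusted p = 0.00513), against an edgeR adjusted p of 0.889 without it and of 0.481 with the block on all 15 libraries. Members of duplicated families can share reads. Only uniquely mapped reads were counted, so values of single genes and cluster sums can both miss some. Whether these neighbouring genes belong to such families was not tested.

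The 12 of the 419 genes with the highest summed CPM over the 6 libraries were all among the 29, and all had a higher mean with MitoCoat, with ratios of 1.86 to 4.29 and a median of 3.14. Of the 12, 9 lay in the clusters. In 10 of the 12 every pair was higher with MitoCoat. The 2 exceptions, a gene of 6 exons at chr1:79181855-79190738 and a gene of 9 exons at chr17:3820606-3826015, were lower in the pair numbered 3 alone, with ratios of 0.610 each from 12 counts against 6. The 2 genes of the 29 with a lower mean with MitoCoat were few in counts. An 11-exon gene at chr7:143316920-143453546 had 18, 18 and 2 counts with unmodified mitochondria and 2, 3 and 2 with MitoCoat, and a single-exon gene at chr3:124460730-124461332 had 6, 8 and 4 against 6, 0 and 8.

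**Figure D4:**
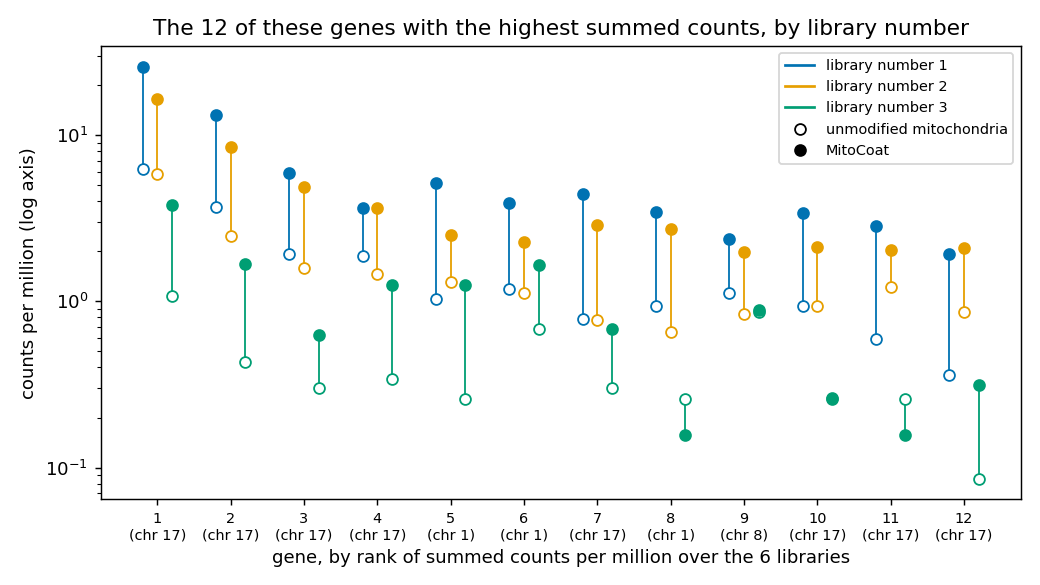
CPM (log axis) of the 12 genes with the highest summed CPM among the 29, with unmodified mitochondria (open points) and MitoCoat (filled points) joined by library number. Filled points lie above open points in all 3 pairs for 10 genes, and the exceptions are the pair numbered 3 for the genes ranked 8 and 11.

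Outside chromosome MT and these genes, 1 abundant gene rose with the block. ENSRNOG00000062158, a single-exon gene of 695 bases at chr1:221158098-221158792, was at 760, 947 and 1042 CPM with unmodified mitochondria and at 1106, 1592 and 2077 CPM with MitoCoat. The groups did not overlap, and the pair ratios were 1.46, 1.68 and 1.99. Its log2 fold change was 0.79 (SE 0.19, edgeR adjusted p = 0.889) without the block and 0.76 (SE 0.086, edgeR adjusted p = 0.0136) with it, and the blocked fit on all 15 libraries gave an edgeR adjusted p of 0.771. The levels with unmodified mitochondria overlapped those of control astrocytes (843 to 1283 CPM), H2O2 alone (742 to 1453 CPM) and MitoCoat–mRNA (810 to 1315 CPM), and the MitoCoat libraries numbered 2 and 3 were above all of them.

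Among genes with a mean of at least 1 CPM, the 10 with the smallest unadjusted p in the higher direction had log2 fold changes of 0.36 to 0.88, and 2 of them were mitochondrial, Nd4 and tRNA-Pro. The second smallest p belonged to a gene of 6 exons at chr5:2042991-2059351, which was at 51.1, 51.2 and 59.4 CPM with unmodified mitochondria and 74.1, 75.3 and 73.2 CPM with MitoCoat. The MitoCoat libraries were close to each other and above all unmodified ones, with a log2 fold change of 0.45 (SE 0.090, edgeR adjusted p = 0.889, DESeq2 adjusted p = 0.0354). The MitoCoat–mRNA libraries, at 59.8 to 76.7 CPM, overlapped the MitoCoat range.

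No gene fell at the adjusted threshold in edgeR on the 6 libraries with either fit, while the block in DESeq2 called 16 lower. The smallest unadjusted p in the lower direction belonged to ENSRNOG00000013267, a gene of 17 exons at chr3:176731769-176744377. It was at 40.4, 41.6 and 43.2 CPM with unmodified mitochondria and at 28.7, 30.2 and 29.0 CPM with MitoCoat, with little spread in either group and no overlap. Its log2 fold change was −0.52 (SE 0.088), with an edgeR adjusted p of 0.889 and a DESeq2 adjusted p of 0.0109. With the block its adjusted p was 0.220 in edgeR and 0.0124 in DESeq2. Both groups were above control (12.1 to 15.5 CPM), H2O2 alone (7.70 to 12.1 CPM) and MitoCoat–mRNA (10.3 to 14.4 CPM), so that the level with the coat lay between that of unmodified mitochondria and those of the libraries without added mitochondria.

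Of the 10 genes with the smallest p in the lower direction, 4 had every MitoCoat library above all 9 libraries without added mitochondria and 6 did not. The share of all genes tested with this order was not computed, so the count describes these 10 alone. Among the 4 was also ENSRNOG00000048914. This gene at chr3:14003340-14022672 was at 5.96, 4.93 and 5.53 CPM with unmodified mitochondria and 2.80, 2.76 and 3.40 CPM with MitoCoat, against 0.870 to 1.53 CPM with H2O2 alone (log2 fold change −0.88, SE 0.19, edgeR adjusted p = 0.889). A gene of 7 exons at chr10:58860940-58873674 was at 13.9, 12.8 and 16.0 CPM against 9.83, 10.5 and 9.35 CPM, with 3.06 to 3.74 CPM with H2O2 alone. The last of the 4, a gene of 13 exons at chr5:56500734-56536772 was at 34.7, 36.2 and 41.4 CPM against 28.1, 30.5 and 23.1 CPM, with 8.63 to 13.4 CPM with H2O2 alone. In these 3 genes the groups did not overlap. Of the other 6, a gene of 14 exons at chr15:43477629-43542939 was at 358, 351 and 351 CPM against 306, 217 and 240 CPM, while control and H2O2 libraries lay higher, between 368 and 515 CPM. With the block the adjusted p of this gene was 0.223 in edgeR and 0.00305 in DESeq2. A gene of 3 exons at chr5:166913735-166926636 was at 32.5, 34.7 and 42.8 CPM against 28.6, 26.6 and 26.1 CPM, with 41.3 to 47.1 CPM with H2O2 alone. Over all genes tested, 793 (5.04%) had MitoCoat libraries that were all below the unmodified mitochondria libraries. The 10 genes with the smallest p in the lower direction were chosen by these same values, and they had log2 fold changes of −0.88 to −0.38, and none was on chromosome MT.

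Gene length moved with the difference between the groups. The median log2 fold change was 0.27 for the 372 nuclear genes under 200 bases of exon, was 0.074, 0.057, 0.024 and −0.020 in the successively longer classes, and was −0.048 for the 3067 genes of 4000 bases or more. The pair numbered 3 showed the widest span, with a median of 0.53 for the shortest genes, while pairs 1 and 2 gave 0.065 and 0.078. In the longest class pairs 2 and 3 were at −0.083 and −0.090, whereas pair 1 was at −0.031 and −0.047 in the classes next to the shortest and at 0.024 in the longest. The groups overlapped in every length class. Across 15703 genes, which are not independent, Spearman's rho between fold change and length was −0.189. Mitochondrial features are short, and after removal of the length trend the 13 mitochondrial mRNAs had a median log2 fold change of 0.24 and Nd4 one of 0.64 with the block (edgeR adjusted p = 0.0156). Without the block, removal of the trend lowered Atp8 from 0.24 to 0.11, Nd4l from 0.27 to 0.15, tRNA-Leu(UUR) from 0.62 to 0.35 and tRNA-Pro from 0.56 to 0.27.

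**Figure D5:**
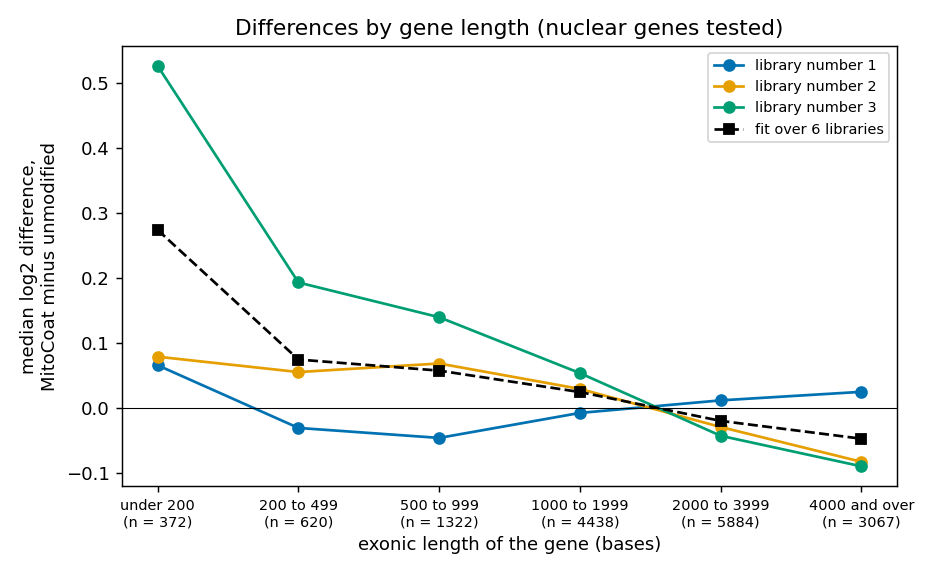
Median log2 difference, MitoCoat minus unmodified mitochondria, of nuclear genes in 6 classes of exonic length (bases), for each numbered pair and for the fit over all 6 libraries. The fit declines from 0.27 in the shortest class to −0.048 in the longest, and the pair numbered 3 reaches 0.53 in the shortest.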

How the data were processed

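Per the labels, Trimmomatic 0.36 removed adapters and poor bases, STAR 2.5.2b aligned the reads to Rnor6.0 and the authors counted uniquely mapped reads on exons with featureCounts of Subread 1.5.2. The deposited values are raw counts per gene, 1 file per sample. The data steps from here on were made for this report. Low counts were mostly even (89.3% to 96.1% of counts under 50), so that both reads of a pair were mostly counted.

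Counts of the 6 libraries were filtered with filterByExpr, normalized by TMM and tested, two-sided, with the quasi-likelihood F test of edgeR 4.0.16 in R 4.3.3, with Benjamini-Hochberg adjustment and calls at 0.05. DESeq2 1.42.0 was an alternative, as were other filters, size factors and left-out libraries. CPM is a count divided by the library total and scaled to 1000000. The replicate numbers come from the labels. Deviations from group means correlated at 0.250, 0.240 and 0.212 between libraries of the same number and at −0.190 to −0.0437 between others (15731 genes). Deviations from a group mean sum to 0, so positive same-number values pull the others below 0, and these add no further evidence. All same-number values were above 0.1, so the numbers were taken as pairs. Whether the samples were paired was not tested. In edgeR, values with this replicate block are given where they change a call. Shares were compared by exact permutation. Intervals (95%) and SE were derived from each fold change and its F value.

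The groups, gene lists and rules were chosen with earlier results of these data known. Named genes were the mitochondrial mRNAs, genes called with or without the block, the 10 with the smallest p in each direction at a mean of at least 1 CPM, and the 12 genes absent from control with the highest sums. The gene lists (628 symbols) could not be applied. The scripts were tested on simulated data. Figures used matplotlib 3.10.9 in Python 3.11.15. 1 further file was identical to that of 1 sample and was not used here.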

Additional observations from a re-analysis of the deposited data

Results flagged for a closer look

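The 29 genes with 0 counts in control and H2O2 libraries had 12 counts in the 3 MitoCoat–mRNA libraries, which are in neither of the groups compared. They were flagged because these libraries lie outside the comparison and held counts where control held 0. The libraries had 4, 6 and 2 counts over 2, 3 and 1 genes, and 5 of the 29 genes had any. Both reads of a pair were mostly counted, so these are about 2, 3 and 1 read pairs, and a count of 0 allows up to 3 read pairs per library, for counting error only. The counts are therefore within the limit that 0 allows in 1 library, and control is at 0 here by the choice of genes. With 3 samples per group, no group was large enough for a check of single outlying samples.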

How the results depend on the processing

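Without the replicate block, no alternative in edgeR called a gene, and the count stayed at 0 with RLE factors, no filter, a filter of 10 counts, all 15 libraries, chromosome MT left out, or any single library left out (0 to 0). At an unadjusted p under 0.05 those fits gave 399 to 1836 genes. DESeq2 called 5 genes, 4 higher and 1 lower, of which 2 were among the 5 of the blocked fit. It gave an adjusted p to 5889 genes. The spliced genes of the blocked fit, on chromosomes 1 and 17, had none and could not be called. With the replicate block the count was 5, all higher, and with each pair left out it was 574 without number 1 (143 higher, 431 lower), 6 without number 2 (5 higher, 1 lower) and 378 without number 3 (249 higher, 129 lower). Alternatives chosen after seeing the data were the removal of the length trend and counts divided by 2, which with the block each called the same 5 genes and without it 0, the block in DESeq2, which called 45 (29 higher, 16 lower), and the block on all 15 libraries, which called 1, higher (ENSRNOG00000039975). The cause of these differences was not tested. The ratio of chromosome MT shares was 1.16 to 1.30 under all alternatives (1.22 with the replicate block, where the sign-flip p cannot go below 0.25), and that of transcripts absent from control was 1.85 to 2.81 (2.17 with the block). For the 48 single genes tracked, none of 1037 values changed sign and 120 passed the adjusted threshold. The MT share was summed over mRNA and tRNA features alone, so the planned version without ribosomal RNA genes is the same value. Depth limits the absent genes, most of which had too few counts to test.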
